A study of Mus musculus with 5 samples.

Results

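The insulin and adiponectin genes described here are 10 in number, taken as a list by name from the 18820 genes that a row of the array table names with 1 gene symbol. They are *Insr*, *Irs1*, *Irs2*, *Pik3r1* and *Akt2* of the insulin receptor cascade, *Igfbp1* and *Igfbp2*, which the liver secretes, the adiponectin receptors *Adipor1* and *Adipor2*, and *Trib3*, an inhibitor of AKT. All 10 were measured, on 12 rows in all, and all had a mean log2 intensity of at least 5 over the arrays. Liver RNA came from adult C57BL/6 mice that were injected subcutaneously for 4 days with phosphate-buffered saline (PBS, 2 mice) or with CSF1-Fc (3 mice) with the cull on day 5. CSF1-Fc is a fusion of the active fragment of pig colony-stimulating factor 1, the growth factor of macrophages, with part of a pig immunoglobulin. Each liver was hybridized to 1 Affymetrix Mouse Gene 1.1 ST array. The study used male and female mice, and the sex of each arrayed mouse was not given in the sources used here. Access to food before the cull was not given in the sources used here, and whole liver was used, so hepatocytes are not separated from other cells.

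Insulin binds its receptor on hepatocytes, the receptor phosphorylates the IRS proteins, these recruit phosphatidylinositol 3-kinase, and the lipid it makes activates AKT. In the liver, AKT2 lowers glucose output in part by holding the transcription factor FoxO1 out of the nucleus, while FoxO1 activates genes of the fasted state, *Irs2* and *Igfbp1* among them. Adiponectin, a hormone of fat cells, acts on the liver through its receptors, of which AdipoR1 is known for activating AMP-activated protein kinase (AMPK) and AdipoR2 for activating PPARα.

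The start regions of these genes are shown first, since *Irs2* and *Igfbp1* are textbook targets of FoxO1 and the levels of *Irs1*, *Irs2* and *Igfbp1* differed most between the 2 PBS livers. RefSeq windows of 300 bases (250 before to 50 after an annotated start, GRCm38.p6) were found for 9 of the 10 genes, 15 windows in all, and *Insr* was not among them. In the stretches below, all upstream of the start and written 5′ to 3′ on the strand of the gene, capitals mark CAAAACA or its reverse complement TGTTTTG (the core of the insulin response element), the E-box CACGTG, and the forkhead core GTAAACA read from the other strand as TGTTTAC.
*Igfbp1*, chr11:7197647-7197726, plus strand: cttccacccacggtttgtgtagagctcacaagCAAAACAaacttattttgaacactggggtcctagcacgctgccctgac
*Irs1*, chr1:82291460-82291569, minus strand: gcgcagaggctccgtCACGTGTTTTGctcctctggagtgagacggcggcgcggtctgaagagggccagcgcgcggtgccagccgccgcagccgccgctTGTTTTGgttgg
*Irs2*, chr8:11008940-11008999, minus strand: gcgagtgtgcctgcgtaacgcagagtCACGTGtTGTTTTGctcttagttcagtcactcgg
*Adipor2*, chr6:119388880-119388929, minus strand: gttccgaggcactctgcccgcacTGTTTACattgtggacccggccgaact

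The core CAAAACA, searched on both strands, lay 108 bases before the start of *Igfbp1*, 111 and 32 bases before that of *Irs1*, and 37 bases before that of *Irs2*. It was found in no window of the other 6 genes that had one, and 6.28% of 32851 windows over all genes held it. In *Irs1* and *Irs2* an E-box stood beside the core, sharing 2 bases with it in *Irs1* and separated from it by 1 base in *Irs2*. An E-box was also found 142 bases before 1 start of *Igfbp2*, and 7.15% of all windows held this motif. The forkhead core was found 172 bases before the start of *Adipor2* and after 1 of the starts of *Adipor1*, against 3.65% of all windows. The 8-letter element TGATGCAA, which ATF4 and C/EBP proteins bind, was in no window of the 9 genes searched, that of *Trib3* included, and in 0.895% of all windows. These matches describe letters in these windows and were not measured as binding sites.

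**Figure D1:**
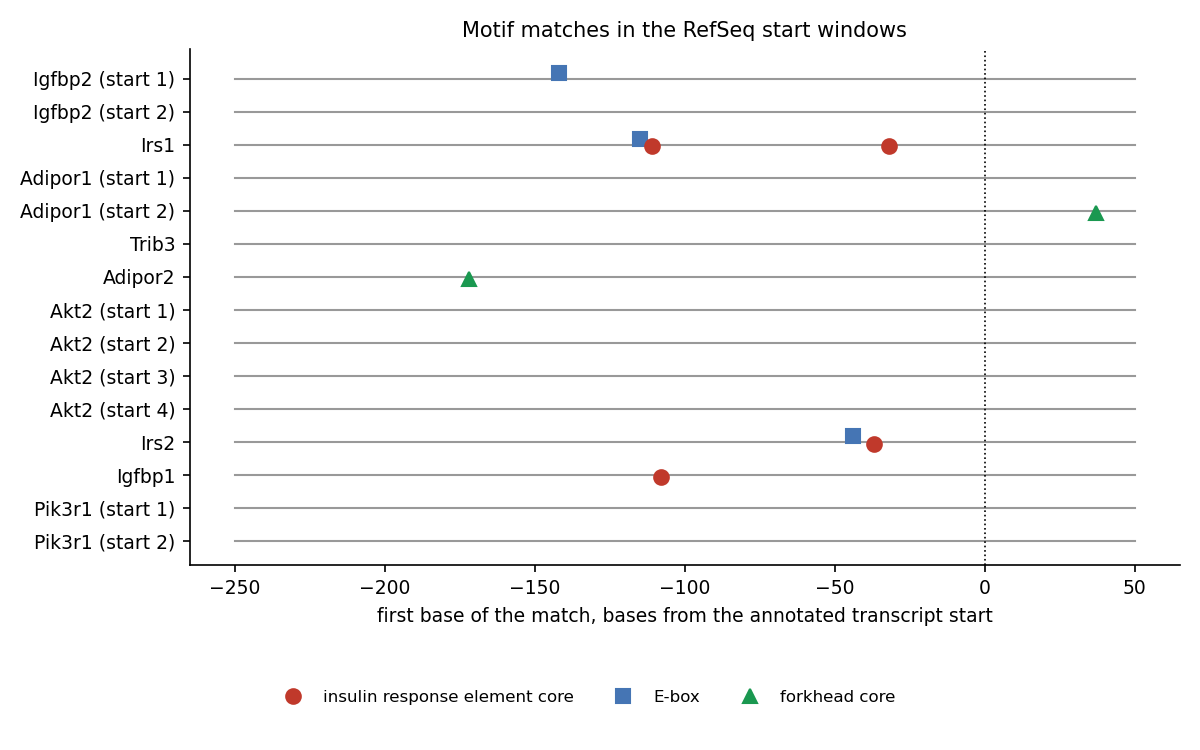
Matches of the insulin response element core (red circles), the E-box (blue squares) and the forkhead core (green triangles) in the windows of 9 genes. The horizontal axis is the position of the first matched base in bases from the annotated start, and *Irs1* and *Irs2* are the genes with a circle next to a square.

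The arrays of all 5 livers were alike, with correlations of log2 values from 0.960 to 0.991 over 35556 rows and median intensities from 31.1 to 33.0. Hepatocyte transcripts were present at high levels in both groups, and of 15 hepatocyte markers 0 were called by limma (0 higher and 4 lower at an unadjusted p under 0.05). The 4 were *Tat* (log2 fold change -0.93), *Cps1* (-0.62), *Hnf4a* (-0.48) and *Cyp2e1* (-0.41), and the median of the 15 was -0.115. Their summed intensity was 102697 to 105296 in PBS, against 90243 to 98187 in CSF1-Fc livers. This sum of linear values for the 15 markers leans on the brightest of them, such as *Alb* (0.03). Macrophage markers were higher for 18 of 18 genes, and their summed intensity went from 5671 to 6230 in PBS livers to between 29023 and 31058 in CSF1-Fc livers. Neutrophil markers were higher for 9 of 11, with sums of 224 to 303 against 1939 to 2278, and cell cycle genes for 9 of 9. In the paper, histology of treated livers showed no neutrophil infiltration of the kind that marks tissue damage, while neutrophils in blood were increased. The part of cells that carry any of these markers in the changes below was not tested. In whole liver fewer cells of a type and less RNA per cell cannot be told apart. *Adipoq*, the gene of adiponectin and a defining marker of fat cells, was at log2 3.94 and 3.93 in the PBS livers and at a mean of 4.01 in CSF1-Fc livers, among the dim rows.

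Of the 10 genes, 3 were lower in CSF1-Fc than in PBS livers at an adjusted p under 0.05 from limma, 0 were higher and 7 did not pass. The genes that fell were *Adipor2*, *Irs2* and *Insr*. At an unadjusted p under 0.05 from limma, 5 were lower and 0 higher, and the share of all genes at this cutoff was not computed. Over all 18820 genes, 3.95% were called lower and 8.34% higher, and among the 10771 genes with a mean log2 intensity of at least 5, as all members had, 6.62% were called lower and 13.4% higher. The median log2 fold change of the 10 genes was -0.69, beside -0.08 for all genes, and 9 of the 10 had a lower mean in CSF1-Fc livers. The share of all genes with a lower mean was not computed, but their median also lay below 0. In 5 of the 10, namely *Insr*, *Irs1*, *Irs2*, *Igfbp2* and *Adipor2*, every CSF1-Fc liver lay below both PBS livers, where 29.3% of all genes did so. In *Adipor1* alone every CSF1-Fc liver lay above both, as did 18.2% of all genes.

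**Figure D2:**
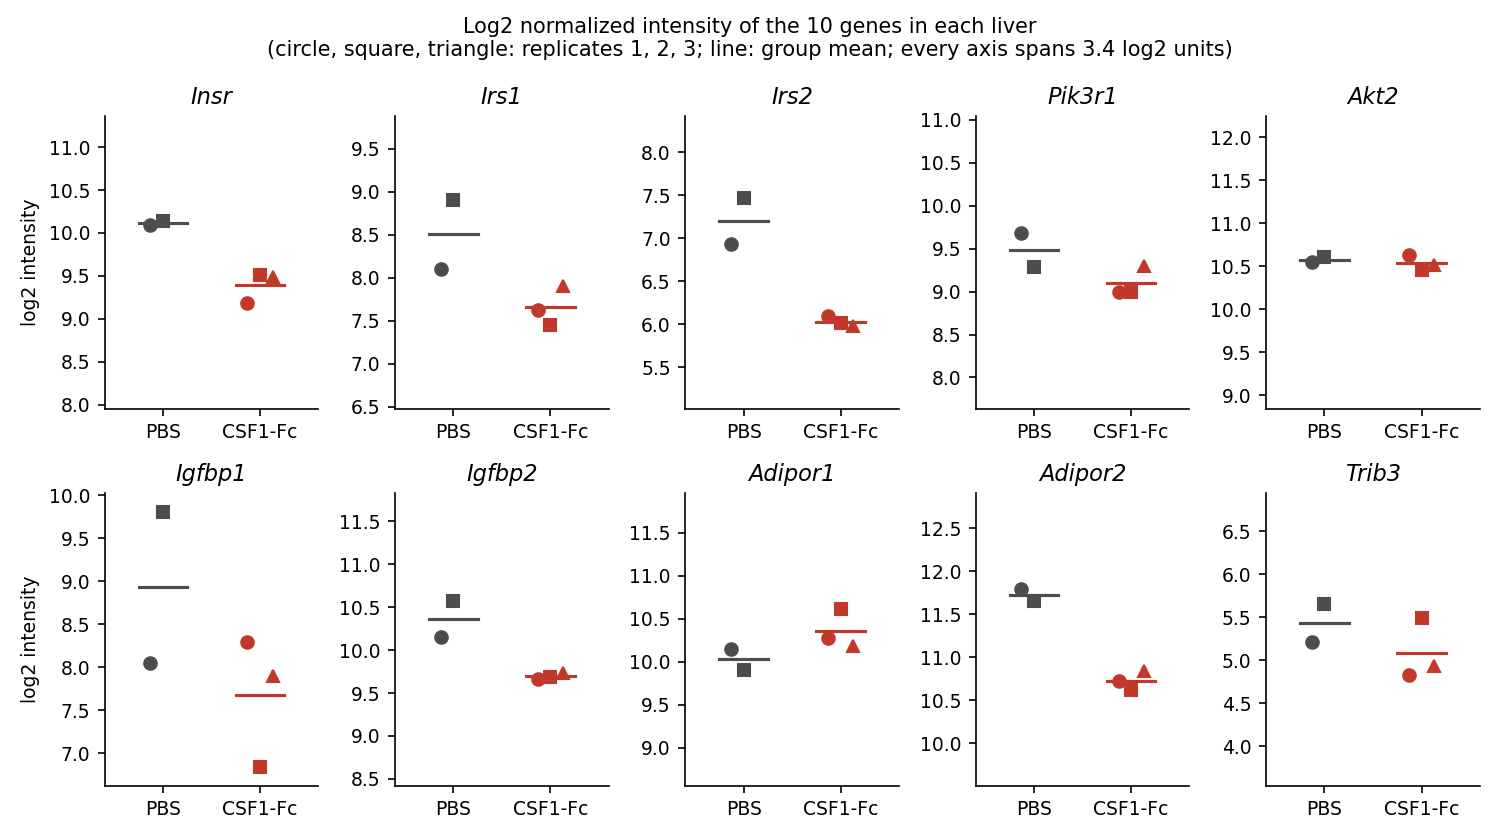
Log2 normalized intensity of each gene in every liver (grey, PBS; red, CSF1-Fc; circle, square and triangle, replicates 1, 2 and 3; line, group mean), on vertical axes that each span the same number of log2 units. The groups are apart for *Insr*, *Irs2* and *Adipor2*, overlap for *Igfbp1* and *Trib3*, and are level for *Akt2*.

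*Insr*, the insulin receptor, fell in CSF1-Fc livers. Its log2 intensity was 10.09 and 10.13 in the PBS livers, against 9.18, 9.51 and 9.48 in the CSF1-Fc livers. The PBS livers nearly coincided, and the CSF1-Fc livers lay below them with replicate 1 the lowest. The log2 fold change was -0.72 (standard error 0.15, 95% interval -1.09 to -0.36, adjusted p = 0.0355 from limma), a level lower by a factor of 1.65. The other *Insr* row read 9.52 and 9.67 in PBS, against 8.51, 8.55 and 9.10 in CSF1-Fc livers, and its change of -0.88 (standard error 0.21, adjusted p = 0.0549 from limma) missed the threshold. On that row CSF1-Fc replicate 3 stood closer to the PBS livers than its group. The call of *Insr* ended without PBS replicate 1 (adjusted p = 0.167), PBS replicate 2 (0.221) or CSF1-Fc replicate 1 (0.109), with no variance moderation (0.148), and when liver secreted proteins were used to centre the arrays (-0.58, 0.0771), a scaling that raised the median change of all genes by 0.14.

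*Irs2*, an adaptor that carries the signal from the receptor to phosphatidylinositol 3-kinase and that insulin represses, had the deepest of the called changes among the 10. Its log2 intensity was 6.93 and 7.47 in PBS livers against 6.09, 6.02 and 5.97 in CSF1-Fc livers. The CSF1-Fc livers were within 0.12 of each other, and PBS replicate 2 was the highest liver. The log2 fold change was -1.17 (standard error 0.18, 95% interval -1.61 to -0.73, adjusted p = 0.0127 from limma), lower by a factor of 2.25. The call was lost without PBS replicate 2 (-0.90, adjusted p = 0.0761), when CSF1-Fc replicate 1 was omitted (adjusted p = 0.0522) and with no variance moderation (adjusted p = 0.134).

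*Irs1*, the other main adaptor of hepatocytes, read 8.11 and 8.91 in PBS livers, against 7.63, 7.45 and 7.90 in CSF1-Fc livers. All CSF1-Fc livers were below both PBS livers, but the PBS livers were 0.80 apart and replicate 1 was close to the highest CSF1-Fc liver. The log2 fold change of -0.85 (standard error 0.26, 95% interval -1.48 to -0.21, adjusted p = 0.115 from limma) did not pass the threshold. It was -1.25 with PBS replicate 1 omitted and -0.45 with PBS replicate 2 omitted. It was called lower with rows of 1 gene symbol (adjusted p = 0.0362 from limma), with the mean over rows (0.0323) and with array weights (0.0372). Those weights were 4.19 for CSF1-Fc replicate 1, against 0.47 and 0.43 for CSF1-Fc replicates 2 and 3.

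Below the adaptors, neither *Pik3r1* nor *Akt2* passed the test. *Pik3r1*, which encodes the p85α regulatory subunit of phosphatidylinositol 3-kinase, was at 9.68 and 9.29 in PBS, against 8.997, 8.998 and 9.30 in CSF1-Fc livers. CSF1-Fc replicate 3 reached the level of PBS replicate 2, so the groups overlapped. Its log2 fold change was -0.39 (95% interval -0.82 to 0.05, adjusted p = 0.262 from limma), and it was -0.19 with PBS replicate 1 omitted and -0.58 with PBS replicate 2 omitted. *Akt2*, the main AKT isoform of insulin action in liver, was at 10.55 and 10.60 in PBS, against 10.63, 10.46 and 10.51 in CSF1-Fc livers, a change of -0.04 with a 95% interval of -0.35 to 0.26 (adjusted p = 0.885). The other *Akt2* row gave -0.06 with an interval of -0.37 to 0.25. The platform annotation names both rows *Akt2*, a gene of chromosome 7, but 18 of the 20 named rows with probe numbers nearest to the brighter one belong to genes of chromosome 11, where RefSeq (GRCm38.p6) lists the pseudogene *Akt2-ps*. For the other row, 20 of 20 belong to chromosome 7. Which transcript the brighter row measures was not tested, and the other row is the one whose neighbours match the gene. The sign of the *Akt2* change turned to 0.09 when liver secreted proteins were used to centre the arrays and to 0.03 with array weights.

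The binding proteins of the insulin-like growth factors differed widely in how far the livers of a group lay apart. *Igfbp1*, whose transcription insulin shuts down within hours, was at 8.06 and 9.81 in PBS, against 8.30, 6.84 and 7.90 in CSF1-Fc livers. The PBS livers differed by 1.75 and enclosed CSF1-Fc replicate 1, and only 20 of 18820 genes differed more between these 2 livers. Its log2 fold change of -1.25 had a standard error of 0.61 and a 95% interval from -2.71 to 0.21 (adjusted p = 0.281 from limma), and was -2.13 with PBS replicate 1 omitted, -0.38 with PBS replicate 2 omitted and -0.83 with CSF1-Fc replicate 2 omitted. *Igfbp2* was at 10.15 and 10.58 in PBS, against 9.67, 9.69 and 9.73 in CSF1-Fc livers. The CSF1-Fc livers were tightly grouped below both PBS livers, and the change of -0.67 (standard error 0.16, 95% interval -1.06 to -0.27, adjusted p = 0.0576 from limma) missed the threshold. It was called with rows under a mean log2 of 5 left out (adjusted p = 0.0364) and with rows of 1 gene symbol (adjusted p = 0.0172), and it was -0.45 without PBS replicate 2.

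*Adipor2* carried the lowest adjusted p of the 10. Its log2 intensity was 11.79 and 11.65 in the PBS livers, against 10.72, 10.62 and 10.84 in the CSF1-Fc livers. Each group was tight and the gap between them was several times the spread within either. The log2 fold change was -0.99 (standard error 0.13, 95% interval -1.32 to -0.67, adjusted p = 0.00698 from limma), a level lower by a factor of 1.99. It was -0.86 when liver secreted proteins were used to centre the arrays (adjusted p = 0.00965), while the call was lost without PBS replicate 1 (-0.93, adjusted p = 0.0736), without PBS replicate 2 (-1.06, adjusted p = 0.055) and with no variance moderation (adjusted p = 0.0608). *Adipor1* was at 10.15 and 9.91 in PBS, against 10.28, 10.61 and 10.18 in CSF1-Fc livers. CSF1-Fc replicate 3 was barely above PBS replicate 1, and the change of 0.33 (95% interval -0.10 to 0.75, adjusted p = 0.332 from limma) did not pass. It was 0.21 with PBS replicate 2 omitted and 0.20 with CSF1-Fc replicate 2 omitted. Whether the 2 receptors changed differently was not tested.

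*Trib3*, a pseudokinase that binds AKT and is induced by ATF4 under stress, did not pass the test. It read 5.21 and 5.65 in PBS livers, against 4.82, 5.49 and 4.93 in CSF1-Fc livers. The groups overlapped, and the log2 fold change was -0.35 (95% interval -0.94 to 0.24, adjusted p = 0.464 from limma). It ran from -0.57 with PBS replicate 1 omitted to -0.13 with PBS replicate 2 omitted, and was -0.22 with CSF1-Fc replicate 1 omitted and -0.55 with CSF1-Fc replicate 2 omitted.

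**Figure D3:**
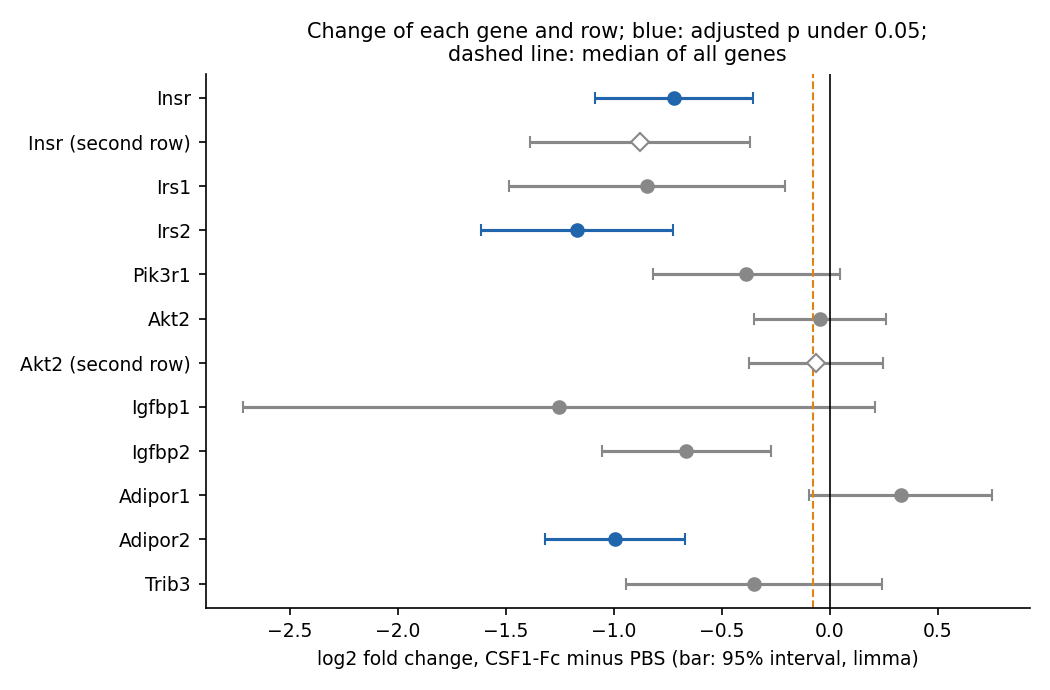
Log2 fold change of each of the 12 rows, CSF1-Fc minus PBS, with its 95% interval from limma (filled circles, brightest row of a gene; open diamonds, the other row; blue, adjusted p under 0.05; dashed line, median of all genes at -0.08). *Igfbp1* has the widest interval, from -2.71 to 0.21, and that of *Adipor2* lies between -1.32 and -0.67.

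The PBS livers differed from each other in several of these genes. Replicate 2 was the higher liver for 7 of the 10, with a median difference of 0.24, while over all genes the median difference was 0.01 and the median of its absolute value 0.15. Differences of *Igfbp1* (1.75), *Irs1* (0.80) and *Irs2* (0.53) were beyond 0.48, the 95th percentile of the absolute difference over all genes. Of the 9 genes with a window, these 3 were the ones that held the core CAAAACA. The start regions were shown because of these differences, so the match is no separate evidence. *Adipor1* and *Adipor2*, which held the forkhead core, were at -0.24 and -0.13 in PBS replicate 2 minus replicate 1. Whether any motif bears on the differences between the PBS livers was not tested. Among 13 genes that FoxO1 activates in liver, 10 were higher in PBS replicate 2, with a median of 0.24, *Bcl6* at 1.22 and *Angptl4* at 0.65. *Socs3*, which cytokines induce and which inhibits the insulin receptor, was 1.97 lower in replicate 2. With 2 livers these differences are descriptions and carry no test, and the fold changes of *Igfbp1*, *Irs1*, *Irs2*, *Igfbp2*, *Pik3r1*, *Adipor1* and *Trib3* all move with which PBS liver is used.

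**Figure D4:**
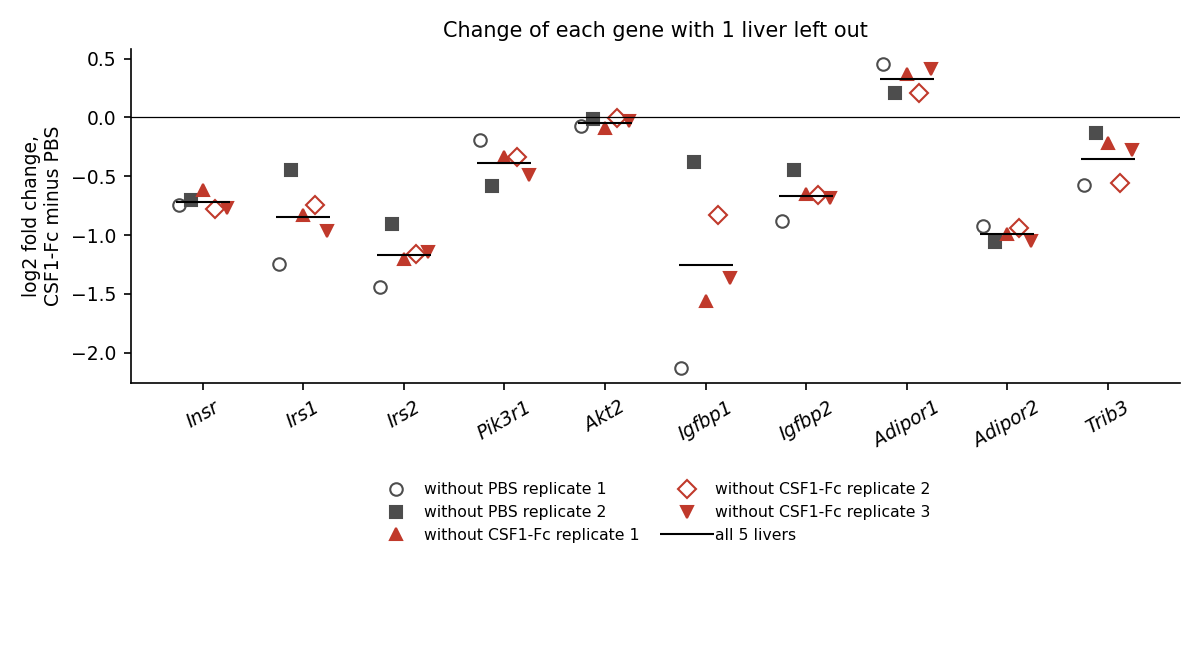
Log2 fold change of each gene, CSF1-Fc minus PBS, with 1 liver left out (grey symbols, a PBS liver; red symbols, a CSF1-Fc liver; black line, all 5 livers). Values for *Insr*, *Akt2* and *Adipor2* stay close together, and those for *Igfbp1* run from -2.13 to -0.38.

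Genes around the receptor were next compared, from a list of 15 regulators and substrates without the 10 genes. Of these, 2 rose, 2 fell and 11 did not pass, with a median log2 fold change of -0.27. Beside the counts of this list and the later ones, 8.34% of all 18820 genes were called higher and 3.95% lower. These shares are at the adjusted threshold and do not apply to counts at an unadjusted p, for which no share of all genes was computed. *Ptpn1*, the phosphatase PTP1B that dephosphorylates the insulin receptor, rose from 7.88 and 7.98 in PBS livers to 9.63, 9.52 and 9.66 in CSF1-Fc livers (log2 fold change 1.67, standard error 0.13, adjusted p = 0.000709 from limma). The CSF1-Fc livers lay far above both PBS livers, in the opposite order from *Insr*. *Sh2b2*, an adaptor of the receptor, rose by 0.93 (adjusted p = 0.0434). *Ptprf*, a receptor phosphatase also known as LAR, and *Grb14*, an inhibitor bound to the activated receptor, were lower, at -0.94 and -0.83 (adjusted p = 0.0407 and 0.0241). Neither *Igf1r* (-0.12), *Ceacam1*, of insulin clearance (-0.68, adjusted p = 0.0572), nor *Ide*, the insulin-degrading enzyme (-0.91, adjusted p = 0.12), passed. Of the 4 calls, that of *Ptpn1* held without any 1 liver; without PBS replicate 2 it was the only call of this list, and without PBS replicate 1 those of *Ptprf* (0.129) and *Grb14* (0.107) were lost. With CSF1-Fc replicate 1 or 2 omitted, *Ptprf* (0.144 and 0.0789), *Grb14* (0.1001 and 0.0537) and *Sh2b2* (0.149 and 0.0826) did not pass, and *Sh2b2* was at 0.0663 with CSF1-Fc replicate 3 omitted.

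Of 27 other genes of the kinase and AKT branch, 5 rose, 1 fell and 21 did not pass, with a median of -0.15. The genes that rose most encode the catalytic and regulatory subunits of phosphatidylinositol 3-kinase that leukocytes use, namely *Pik3cg* (2.61, adjusted p = 0.000447), *Pik3cd* (2.37, adjusted p = 0.000428), *Pik3r5* (1.4985, adjusted p = 0.00516) and *Pik3r6* (1.37, adjusted p = 0.0081). In PBS livers *Pik3r5* was at 4.89 and 5.04, close to the log2 of 5 used as the floor for dim rows. *Pik3cg* stood at 5.39 and 5.17 in PBS, against 7.82, 7.74 and 8.10 in CSF1-Fc livers, beside the rise of macrophage markers in the same livers. The catalytic subunits with a broad distribution, *Pik3ca* (-0.29) and *Pik3cb* (-0.01), did not pass. *Akt1* rose by 0.71 (adjusted p = 0.0195) and *Foxo1* was the gene that fell, at -0.70 (adjusted p = 0.0271). Without PBS replicate 1 the list had 2 rises and 0 falls, *Akt1* (0.136), *Pik3r5* (0.0516) and *Pik3r6* (0.0507) being lost; it had 4 rises and 0 falls when PBS replicate 2 or CSF1-Fc replicate 1 was omitted, 5 and 0 when CSF1-Fc replicate 2 was, and 5 and 3 when CSF1-Fc replicate 3 was. *Akt1* was also lost without PBS replicate 2 (0.148) or CSF1-Fc replicate 1 (0.0925). *Foxo1* was called only without CSF1-Fc replicate 3 among the leave-outs, its adjusted p from limma being 0.0899 and 0.223 without PBS replicates 1 and 2, 0.111 and 0.0593 without CSF1-Fc replicates 1 and 2, and 0.0652 when liver secreted proteins were used to centre the arrays. The part of leukocyte RNA in these rises was not tested.

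Among 9 further genes of the insulin-like growth factors and their binding proteins, 0 rose, 1 fell and 8 did not pass (0 higher and 3 lower at an unadjusted p under 0.05 from limma), with a median of -0.33. *Igfals*, the acid-labile subunit that holds the growth factor and its binding protein in the circulation, was at 9.40 and 9.31 in PBS, against 8.31, 8.36 and 8.65 in CSF1-Fc livers (log2 fold change -0.92, standard error 0.15, adjusted p = 0.0156 from limma). *Igf1* was at -0.10 and *Igfbp3* at -0.33, neither passing. The call of *Igfals* was lost without PBS replicate 1 (0.118), PBS replicate 2 (0.104) or CSF1-Fc replicate 1 (0.0726).

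On the adiponectin side, 24 other genes covered AMPK subunits, their activators and the family of *Adipor1* and *Adipor2* (PAQR). Of these 1 rose, 5 fell and 18 did not pass, with a median of -0.20. *Mmd* and *Paqr9*, relatives of the adiponectin receptors, fell by 1.22 and 1.02 on the log2 scale (adjusted p = 0.00499 and 0.0154), and *Paqr7* fell by 0.56 (adjusted p = 0.0413). *Prkaa2*, the catalytic α2 subunit of AMPK, fell from 9.96 and 9.78 to 8.75, 8.62 and 9.01 (log2 fold change -1.07, adjusted p = 0.0113), and the γ2 subunit *Prkag2* fell by 0.62 (adjusted p = 0.0377), while *Prkaa1*, the α1 subunit, was at 0.13 (adjusted p = 0.764). *Strada*, a partner of the upstream kinase LKB1, rose by 1.12 (adjusted p = 0.00656). *Ppara*, the nuclear receptor linked to AdipoR2, was at -1.01 (adjusted p = 0.0511) and *Appl1*, the adaptor of both receptors, at -0.11. The list had 1 rise and 1 fall when PBS replicate 1 was omitted, 0 and 1 when PBS replicate 2 was, and 1 and 1 when CSF1-Fc replicate 1 was. The call of *Paqr7* was lost whichever liver was omitted (adjusted p from 0.0632 to 0.234), and that of *Prkag2* with any but CSF1-Fc replicate 3 omitted (0.0704 to 0.217). With liver secreted proteins used to centre the arrays they were at 0.141 and 0.0911. Among the other calls lost were *Prkaa2* (0.0967, 0.0676 and 0.0577) and *Paqr9* (0.108, 0.112 and 0.0726) in those 3 settings, and *Mmd* (0.0553) and *Strada* (0.0722) without PBS replicate 2.

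Both sides of the transcriptional response to insulin held genes that were lower. Of 14 genes that insulin raises in liver, 0 rose, 6 fell and 8 did not pass (0 higher and 7 lower at an unadjusted p under 0.05 from limma), with a median of -0.48. *Acacb*, which makes the malonyl-CoA that restrains fatty acid oxidation, was at -1.71 (adjusted p = 0.00938), malic enzyme *Me1* at -1.36 (adjusted p = 0.00479), *Thrsp* at -1.21 (adjusted p = 0.0165) and *Mlxipl*, the glucose-sensing factor ChREBP, at -1.17 (adjusted p = 0.0328). *Srebf1*, the factor that mediates much of this response, was at 0.20 and *Fasn* at -0.40, and neither passed. Of the 13 genes that FoxO1 activates, 1 rose, 4 fell and 8 did not pass, with a median of -0.91. *Bcl6*, a transcriptional repressor, was at -2.42 (adjusted p = 0.0174), glucose-6-phosphatase *G6pc* at -2.22 (adjusted p = 0.0207) and *Angptl4*, an inhibitor of lipoprotein lipase, at -1.68 (adjusted p = 0.0266), whereas *Sesn1* rose by 1.02 (adjusted p = 0.00732). When PBS replicate 1, PBS replicate 2 or CSF1-Fc replicate 1 was omitted, the falls numbered 1, 2 and 2 in the first list and 3, 0 and 1 in the other. Calls lost in that order were *Acacb* (0.0627 and 0.0795 for the PBS livers), *Mlxipl* (0.102, 0.22 and 0.118), *G6pc* (0.0956, 0.143 and 0.0773), *Angptl4* (0.0574, 0.18 and 0.0551) and *Sesn1* (0.0727 and 0.0638 for the PBS livers). *Thrsp* was lost without PBS replicate 1 (0.11) or CSF1-Fc replicate 1 (0.0647), *Bcl6* without PBS replicate 2 (0.0818), and *Angptl4* also without CSF1-Fc replicate 3 (0.051).

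Genes of the fasting response, which share *G6pc*, *Angptl4* and others with the FoxO1 list, were lower for 5 of 12 and higher for 0, with a median of -1.01. At an unadjusted p under 0.05 from limma, 10 were lower and 0 higher, a cutoff at which the share of all genes was not computed. *Cyp4a14*, a fatty acid omega-hydroxylase induced by fasting, fell by 2.96 on the log2 scale (adjusted p = 0.000985 from limma). It stayed called with any 1 CSF1-Fc liver left out, and its change was -3.12 without PBS replicate 1 and -2.80 without PBS replicate 2. Its log2 values in CSF1-Fc livers, 4.89, 4.46 and 5.27, lay around the floor of 5 used for dim rows, so the size of its fall is uncertain. *Vnn1*, a pantetheinase that PPARα induces, fell by 1.75 (adjusted p = 0.00882). In PBS livers 10 of the 12 were higher in replicate 2, with a median difference of 0.36. The falls came to 3 when PBS replicate 1 was omitted, 1 when PBS replicate 2 was and 2 when CSF1-Fc replicate 1 was, and *Vnn1* was lost without either PBS liver (0.0633 and 0.0722).

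The integrated stress response is the ATF4 pathway that induces *Trib3*. Of its 21 other genes, 4 rose, 0 fell and 17 did not pass (5 higher and 1 lower at an unadjusted p under 0.05 from limma), with a median of 0.12. Those that rose were *Psat1*, of serine synthesis (1.99, adjusted p = 0.00099), *Atf3* (1.62, adjusted p = 0.0229), *Nupr1* (1.37, adjusted p = 0.00491) and *Mthfd2*, of mitochondrial folate metabolism (1.03, adjusted p = 0.00408). *Atf4* itself was at 0.00 and *Chac1* at -0.23, neither passing. *Psat1* and *Mthfd2* are also abundant in dividing cells, and the cell cycle genes of these livers rose, at a median of 3.47 (their part in these rises was not tested). With PBS replicate 1 omitted there were 2 rises, *Atf3* (0.0556) and *Mthfd2* (0.0515) being lost, and with PBS replicate 2 omitted also 2, where *Atf3* (0.163) and *Nupr1* (0.0534) were lost.

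**Figure D5:**
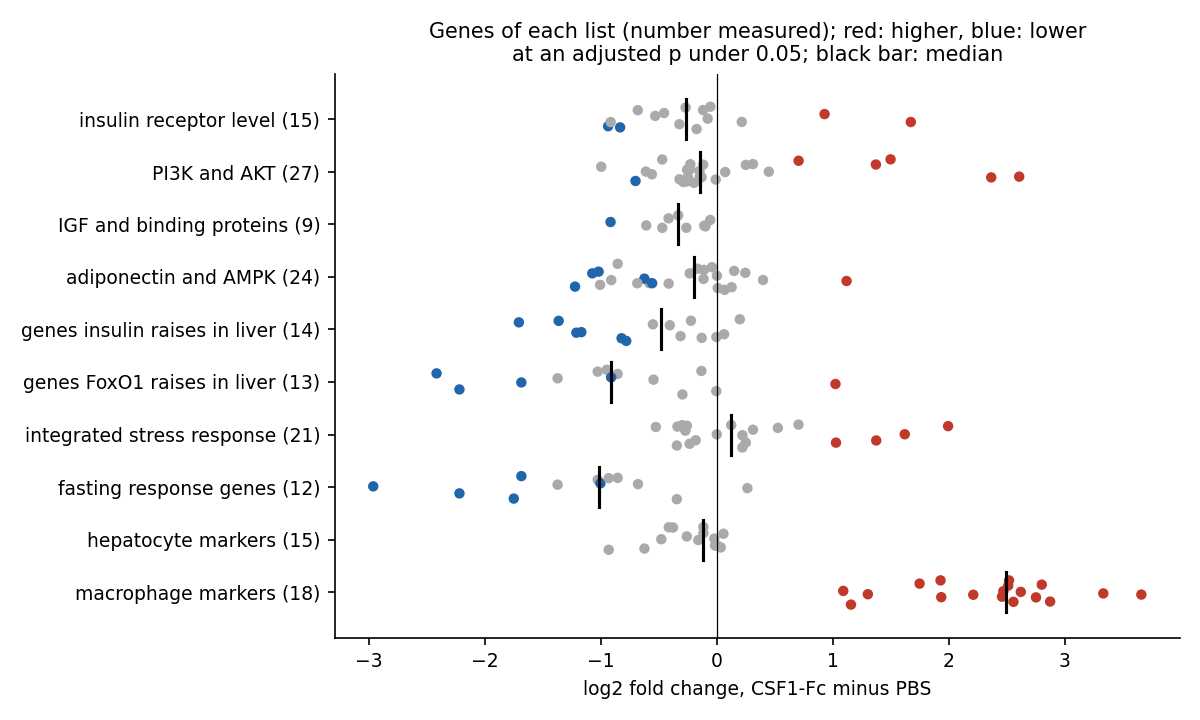
Log2 fold change, CSF1-Fc minus PBS, of every measured gene of 8 pathway lists without the 10 genes, with hepatocyte and macrophage markers for comparison (red, higher and blue, lower at an adjusted p under 0.05; black bar, median; number measured in brackets). The bars lie at -0.91 for genes that FoxO1 activates, -0.48 for genes that insulin raises and 2.49 for macrophage markers.

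Of all 18820 genes, 8.34% were called higher and 3.95% lower. Among those with a mean log2 intensity of at least 5 the shares were 13.4% and 6.62%. Over the 8 lists together, 128 genes were measured, of which 13 rose, 22 fell and 93 did not pass, with a median of -0.25. The balance depended on single livers, with 7 rises and 4 falls without PBS replicate 2 and 11 rises and 6 falls without CSF1-Fc replicate 1. Patterns across the 5 livers closest to those of the called genes were sought among 6821 genes with a mean log2 intensity of at least 7. For *Irs2* these were *Ppp1r3b*, which brings protein phosphatase 1 to glycogen, with a Pearson correlation of 0.999 over 5 livers, *Lmf1* (0.998) and *Oaf* (0.997). For *Insr* they were *Mtarc1*, *Bmp6* and *Selenoo* (0.998 each), and for *Adipor2* *Abcg2*, *Lhpp* and *Fgfr3* (0.999, 0.999 and 0.998). Correlations above 0.99 were reached by 30 genes for *Insr*, 20 for *Irs2* and 74 for *Adipor2*, so that 5 livers in 2 groups do not single out any of them.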

How the data were processed

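RNA from the livers of 2 PBS-treated and 3 CSF1-Fc-treated mice (1 mg/kg daily in the study's methods) was measured on 1 array each. The authors scanned the arrays, checked them in Expression Console (version 1.1 in the submitters' processing notes) and analysed them in Partek. The values they deposited are normalized intensity on a linear scale, made by background, normalization and summary steps not given in the sources used here. In GEO's platform annotation 21218 of 35556 rows had 1 gene symbol, 1881 had several and 12457 had none. The brightest row with 1 symbol stood for a gene.

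Log2 values (no pseudocount, no filter) entered a limma model (version 3.58.1, R 4.3.3) with 1 mean per condition and eBayes moderation (3 residual and 3.34 prior degrees of freedom), with Benjamini-Hochberg adjustment over all rows. Arrays have no read depth, and precision is limited by how many there were. The script was tested on data simulated with the means and spread of these arrays. It called 3 of 67 rows changed by log2 0.7, 27 of 67 changed by log2 1 and 66 of 66 changed by log2 2, with 6 false calls. Only 200 of 35556 rows were changed there, a smaller share than was called in these data, so the adjusted threshold was harder to pass there. Changes near log2 0.7 were mostly missed in the simulation, which does not give the rate at which the real test misses them. A gene that did not pass may still have changed. The members and lists were chosen with earlier results of these data known, so no list is independent evidence. All members were named, with up to 4 called genes of each list by size. Others named beside a count (such as *Foxo1*, *Akt1*, *Paqr7*, *Prkag2*, *Socs3*, *Ppara* and *Igf1*) were picked with their values in view. Results were recomputed with the replicate block, each liver left out, thresholds of 0.1 and 0.01, array weights (statmod 1.5.0), no moderation or a variance trend, means over rows, only rows with 1 symbol, a filter on dim rows, quantile normalization, and centring of arrays on their median or on secreted proteins of liver.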

Additional observations from a re-analysis of the deposited data

How the results depend on the processing

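The count of 3 genes lower and 0 higher among the 10 kept its lower part at 2 to 4 with quantile normalization, median centring, centring on liver secreted proteins, the filter on dim rows, the variance trend and a threshold of 0.1. It was 5 lower with rows of 1 gene symbol, 5 with the mean over rows and 5 with array weights, 0 with no variance moderation, and 1 at an adjusted p under 0.01. The array weights were 4.19, 0.47 and 0.43 for CSF1-Fc replicates 1, 2 and 3 and 1.08 for each PBS liver. Results with array weights therefore lean on CSF1-Fc replicate 1. Leaving out 1 liver gave 0 to 3 lower, the 0 being without PBS replicate 2, and 1 when PBS replicate 1 or CSF1-Fc replicate 1 was omitted. No gene of the 10 was called higher under any of these settings. Directions of 9 of the 10 held throughout, and *Akt2* turned to 0.0939 with centring on liver secreted proteins and to 0.0258 with array weights. The 35 calls among pathway genes became 58 with array weights, 5 with no moderation and 15 at an adjusted p under 0.01, and 11 to 38 with 1 liver left out (15 with PBS replicate 1 omitted, 11 with PBS replicate 2 omitted and 17 with CSF1-Fc replicate 1 omitted). With rows of 1 gene symbol, falls numbered 9 in the FoxO1 list, 10 in the fasting list, 8 in the adiponectin list, 5 in the receptor list and 4 in the kinase list, against 4, 5, 5, 2 and 1. That setting left each fold change as it was. It changed only the rows that entered the moderation and the adjustment, 21218 instead of 35556. The cause of the shifts under the other settings was not tested. Livers of the same number did not deviate together from their group means (correlations of -0.07 and -0.25). The deviations of 2 PBS livers mirror each other, so these values cannot decide whether the numbers pair the livers. The replicate block gives number 3, which only CSF1-Fc has, a term of its own. That liver then adds nothing to the fold change, which equals the one with CSF1-Fc replicate 3 omitted (*Insr* -0.77 in both). With the replicate block 2 of the 10 genes and 28 pathway genes were called. Among named genes the calls of *Insr* (adjusted p = 0.0772 from limma), *Sh2b2* (0.0647), *Bcl6* (0.0591), *Thrsp* (0.064), *Akt1* (0.0722), *Foxo1* (0.0843), *Paqr7* (0.149) and *Prkag2* (0.0923) were lost. Signal over background was not given in the sources, so its limit on small changes was not tested.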
